A study of Mus musculus with 451 samples.

Results

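The bone-resorption genes followed here through single cells of mouse tail tendon were Acp5, Ctsk, Atp6v0d2, Tcirg1, Car2, Mmp9 and Calcr. These 7 of the 48795 genes in the count table were taken by name. Acp5 was chosen by its measured rise in Mkx-/- cells, so its difference between genotypes is a description of the value that selected it. The other 6 were added for their part in the same process. The cells came from tail tendons of 4-week-old C57BL/6 mice, either wild-type (WT, 227 cells) or Mkx-/- (224 cells), with no treatment. Tendons were digested with collagenase, and cells were captured on the Fluidigm C1 system, in which each well of a microfluidic chip receives a cell. Mkx, or Mohawk homeobox, is a transcription factor of tendon cells, and tendons of mice without it ossify. Animals and chips are not named for the cells. Each genotype therefore counts as 1 sample, no test between genotypes was possible, and animal, chip and genotype cannot be told apart.

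Bone is resorbed by osteoclasts, large multinucleated cells of the macrophage lineage. An osteoclast seals off a patch of bone and acidifies it: carbonic anhydrase II (Car2) supplies protons, and a vacuolar proton pump (V-ATPase) that contains the a3 subunit (Tcirg1) and the d2 subunit (Atp6v0d2) moves them out. Cathepsin K (Ctsk) and matrix metalloproteinase 9 (Mmp9) then digest the collagen matrix. Acp5 encodes tartrate-resistant acid phosphatase, the classical histochemical stain for osteoclasts, and Calcr is the receptor through which calcitonin restrains them. None of these genes is exclusive to osteoclasts, and Ctsk in particular is also made by fibroblasts. Tnmd (tenomodulin) marks tendon cells, while Ptprc (CD45) and Csf1r (the receptor of macrophage colony-stimulating factor) mark leukocytes and the macrophage lineage, and each member was set beside them cell by cell.

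On the mouse build NCBIM37 (mm9, GENCODE M1 annotation), Acp5 lies on the minus strand at chr9:21931175-21940190 and Ctsk on the plus strand at chr3:95303208-95313284. Atp6v0d2 lies at chr4:19803988-19849752 (minus), Tcirg1 at chr19:3896050-3907133 (minus) and Car2 at chr3:14886426-14900769 (plus). Mmp9 lies at chr2:164766280-164781350 (plus) and Calcr at chr6:3635677-3714713 (minus). Calcr overlaps 2 annotated genes, the microRNA genes Mir653 and Mir489 on its own strand, and the other members overlap none. No stretch of 50 bases in a member's protein-coding transcripts recurred in those of another gene.

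The RefSeq promoter table (GRCm38.p6, 250 bases before to 50 after a start) held 3 windows for Acp5, 1 for Ctsk, 3 for Tcirg1 and 2 for Calcr. Atp6v0d2, Mmp9 and Car2 had none. Each window was searched on both strands for the letters CACATG (an E-box read by Mitf), TGANTCA (AP-1), GAGGAA (the PU.1 core) and TGGAAA (the NFAT core), factors known for driving osteoclast genes. Acp5 is shown as the gene with the larger difference and Ctsk as the gene found in nearly every cell, with the letters matched on either strand in capitals. For Acp5 the window that held a match is printed.
Acp5, chr9:22130549-22130848, minus strand: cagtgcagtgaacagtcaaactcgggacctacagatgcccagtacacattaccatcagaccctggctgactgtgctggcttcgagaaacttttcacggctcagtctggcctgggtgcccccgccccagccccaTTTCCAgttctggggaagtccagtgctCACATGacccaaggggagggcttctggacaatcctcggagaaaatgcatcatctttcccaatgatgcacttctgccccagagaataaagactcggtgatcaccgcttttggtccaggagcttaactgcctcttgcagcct
Ctsk, chr3:95498960-95499259, plus strand: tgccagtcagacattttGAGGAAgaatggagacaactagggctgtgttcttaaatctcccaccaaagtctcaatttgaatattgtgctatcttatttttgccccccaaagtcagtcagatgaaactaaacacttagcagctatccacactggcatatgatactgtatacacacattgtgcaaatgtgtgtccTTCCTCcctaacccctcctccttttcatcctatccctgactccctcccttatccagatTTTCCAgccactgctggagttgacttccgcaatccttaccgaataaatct
The Acp5 window held 1 CACATG, which begins 90 bases before the start site, and 1 TGGAAA. The Ctsk window held 2 GAGGAA and 1 TGGAAA. Of all 32851 windows in the table, 14.2% held CACATG, 28.3% GAGGAA, 21.4% TGGAAA and 7.81% TGANTCA. The other 2 Acp5 windows held none of the motifs. These matches describe the sequence, and no binding was measured.

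The table holds reads per gene and cell. WT cells summed to 13630536 reads (median per cell 51788, range 13076 to 335813) and Mkx-/- cells to 14145394 (median 56121, range 14226 to 294791). Values were summed over the cells of a genotype and scaled to CPM, the counts per 1000000 reads. Intervals are at 95% and cover counting error only. They treat reads as independent, but reads are copies of an unknown number of RNA molecules, so they can be too narrow even for that error. Mkx itself was at 33.8 CPM in WT cells (461 reads) and 15.5 CPM in the Mkx-/- cells, and its log2 ratio was -1.13 (-1.37 to -0.89). The Mkx level was thus lower in the Mkx-/- cells but not at 0, and which part of the gene was deleted is not given in the sources used here. Tnmd was read in 87.2% of WT and 97.3% of Mkx-/- cells, and Col1a1 in every cell of both genotypes. Cells fell into 3 clusters, formed without the members: tendon progenitor-like cells (46.3% of WT and 46.9% of Mkx-/- cells), tenocyte-like cells (74 WT and 80 Mkx-/-) and an unnamed cluster led by Mmp10 and Mmp3 (48 and 39).

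Acp5 was rare in WT tendon cells and read in 35.3% of Mkx-/- cells. It had 79 reads in WT (5.80 CPM, 4.59 to 7.22) and 1767 reads in Mkx-/- (124.9 CPM, 119.2 to 130.9), which gives a log2 ratio of 4.43 (4.10 to 4.77). Of the 227 WT cells 13 had at least 1 Acp5 read (5.73%, 3.08 to 9.59), and of the 224 Mkx-/- cells 79 did (35.3%, 29.02 to 41.9). The difference in share was 29.5 percentage points (22.5 to 36.4), so both the level and the number of carrying cells were higher. With every cell thinned to 28000 reads, the shares were 4.90% of WT and 26.2% of Mkx-/- cells. Single reads made up part of both counts, in 6 of the 13 WT and 24 of the 79 Mkx-/- cells. At least 10 reads stood in 2 WT and 28 Mkx-/- cells.

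The Acp5 reads were spread unevenly over the carrying cells. In WT, the leading cell held 27 of the 79 reads (34.2%), and in Mkx-/- a single tenocyte-like cell held 521 of the 1767 (29.5%). That Mkx-/- cell also had 310 Tnmd reads and no Ptprc or Csf1r read. Its Acp5 level was 9523 CPM, and the next 5 Mkx-/- cells by reads were at 519, 1648, 2091, 837 and 601 CPM. The 5 leading cells carried 54.05% of the Mkx-/- reads and 78.5% of those in WT. Without the leading cell of each genotype, the log2 ratio was 4.53.

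**Figure D1:**
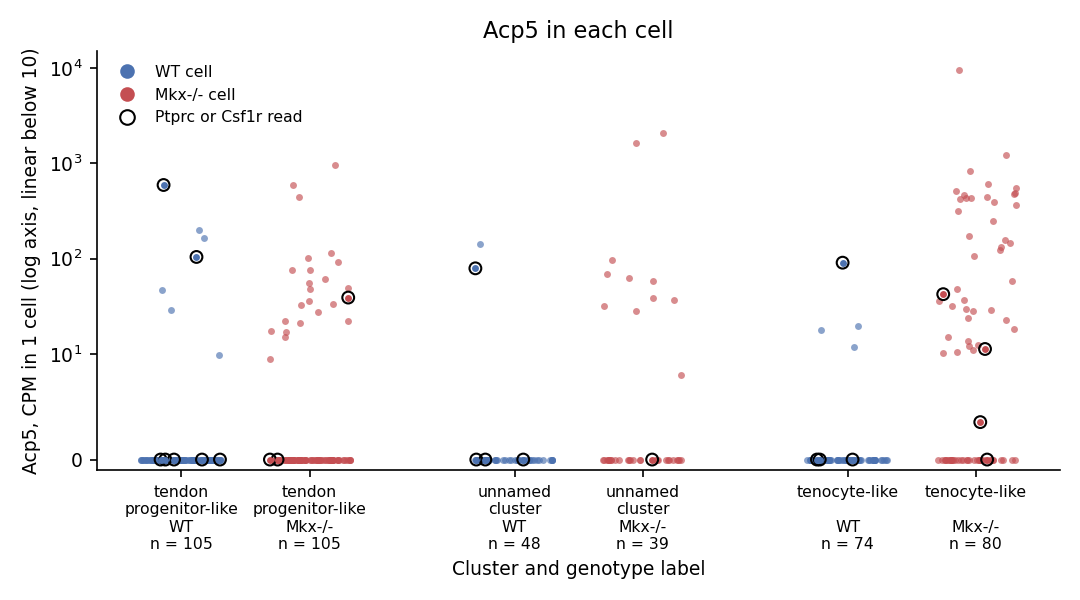
Acp5 in each cell (CPM, log axis with a linear part below 10) by cluster and genotype label, 1 point per cell; black rings mark cells with a Ptprc or Csf1r read. One Mkx-/- tenocyte-like cell stands alone at 9523 CPM, the next of that cluster is at 1235 CPM, and 4 of the 74 WT tenocyte-like cells lie above 0.

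By cluster, the share of Mkx-/- cells with Acp5 was highest among tenocyte-like cells. There 44 of 80 cells had a read, against 4 of 74 in WT (5.41%), and the thinned shares were 38.8% and 4.05%. Tenocyte-like cells were also the deepest, with a median of 82854 reads in WT and 72897 in Mkx-/-, against 43122 and 47481 in progenitor-like cells. Tenocyte-like cells had 11 Acp5 reads in WT (1.73 CPM) and 1364 in Mkx-/- (197.3 CPM), a log2 ratio of 6.83 (5.99 to 7.84). They held 77.2% of all Acp5 reads of Mkx-/- cells, but 521 of the 1364 came from 1 cell, and without it the level was 122.9 CPM. In the unnamed cluster, 11 and 238 reads (5.18 and 123.4 CPM) gave a log2 ratio of 4.57 (3.71 to 5.59). There too 1 Mkx-/- cell led, and without it the level was 66.7 CPM. Tenocyte-like cells thus had the higher level of these 2 clusters, with all cells and with each cluster's leading cell left out. With the leading cell left out of the tenocyte-like cells alone, the 2 levels were about equal. Progenitor-like cells showed the smallest difference, with 11.1 and 31.1 CPM and a log2 ratio of 1.49 (1.05 to 1.95), and they held 72.2% of the WT reads. Of the 11 WT reads in tenocyte-like cells, 8 came from 1 cell, and that ratio, with each genotype's leading cell removed, was 8.003.

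The share of Acp5 reads that lay in cells with a Ptprc or Csf1r read was lower in Mkx-/- than in WT. Its denominator is the Acp5 total that selected the gene, so the lower share is not a separate result. In WT, 49 of the 79 Acp5 reads lay in 4 cells with a Ptprc or Csf1r read, which held 27, 8, 7 and 7 Acp5 reads. In Mkx-/-, 4 such cells held 15 of 1767 reads (0.849%). Seen the other way, Acp5 was read in 4 of the 15 WT cells with a Ptprc or Csf1r read (26.7%, 7.79 to 55.1). In Mkx-/- it was read in 4 of 8 (50%, 15.7 to 84.3). Csf1r was found in 4 of 13 Acp5-carrying WT cells (30.8%, 9.09 to 61.4) and in 3.27% of the others (7 cells, 1.32 to 6.62). In Mkx-/- it was found in 3 of 79 carrying cells (3.797%, 0.790 to 10.7) and in 2 of the others (1.38%). Ptprc was found in 1 carrying cell of each genotype. Without the cells with a Ptprc or Csf1r read, the Acp5 log2 ratio was 5.78 in place of 4.43.

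Cells with those leukocyte reads were not free of tendon transcripts. Of the 15 such cells in WT and 8 in Mkx-/-, all had Col1a1 (type I collagen) reads, and 13 and 8 had Tnmd reads. Whether a well held a second cell or free RNA was not tested. The Csf1r level was 8.66 (WT) and 6.999 CPM (Mkx-/-), and that of Ptprc 1.98 and 2.26 CPM. The 8 blood-lineage markers together reached 37.9 CPM for WT and 31.8 for Mkx-/-, with Coro1a at 0 in WT. The 11 macrophage markers summed to 188.5 and 134.5 CPM, with Itgam at 0 in Mkx-/-. Both sums were lower in Mkx-/- cells, while Ptprc, 1 of these markers, had a log2 ratio of 0.19 (-0.59 to 0.99). At least 3 of these 19 markers were detected in 10 WT cells, which held 50 of the 79 Acp5 reads, and in 6 Mkx-/- cells, which held 2 of 1767. Without those cells the Acp5 log2 ratio was 5.81, a comparison chosen after the values were seen.

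**Figure D2:**
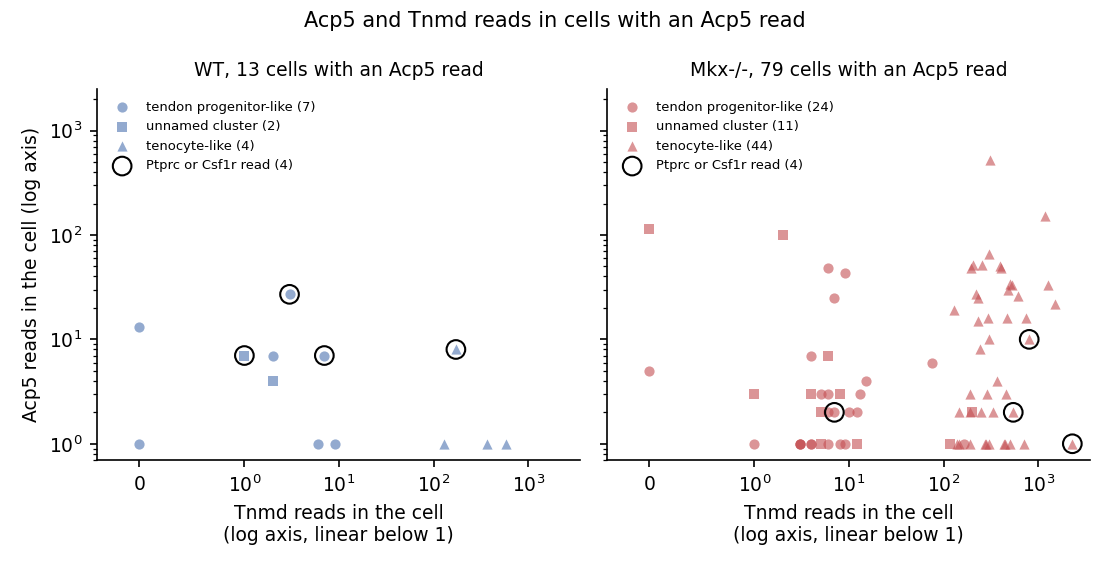
Acp5 reads (log axis) against Tnmd reads (log axis, linear below 1) in each cell with an Acp5 read, WT on the left (13 cells) and Mkx-/- on the right (79 cells); shapes give the cluster, black rings a Ptprc or Csf1r read. In Mkx-/- most cells with 10 or more Acp5 reads also have at least 10 Tnmd reads (23 of 28).

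Tnmd accompanied Acp5 in most Mkx-/- cells, but a single Tnmd read is a weak mark. Tnmd was read in 77 of the 79 carrying cells (97.47%, 91.2 to 99.7) and in about the same share of the others (97.2%), and progenitor-like cells also carried a few Tnmd reads. At a minimum of 10 reads of both genes, Tnmd stood in 23 of 28 carrying cells (82.1%, 63.1 to 93.9) and in 38.8% of the others (76 cells, 31.9 to 45.98). The median Tnmd count was 301 reads in cells with 10 or more Acp5 reads and 5 reads in Mkx-/- cells without Acp5, a contrast that mixes clusters and depths. Within Mkx-/- tenocyte-like cells the median Tnmd level was lower in the 44 with Acp5 (4143 CPM) than in the 36 without (5290 CPM). High Acp5 was not limited to Tnmd-rich cells: the cells at 1648 and 2091 CPM of Acp5, both in the unnamed cluster, had 0 and 2 Tnmd reads. In WT, 0 of the 2 cells with 10 or more Acp5 reads reached 10 Tnmd reads.

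Most of the other osteoclast genes named below were read in few or no Mkx-/- cells, but Nfatc1 and Itgb3 were read in 83.9% and 33.9% of them. Of the 28 Mkx-/- cells with 10 or more Acp5 reads, 2 had Tnfrsf11a (RANK, the receptor for the osteoclast-inducing ligand), against 1 of the Mkx-/- cells without Acp5, and 1 had Ocstamp (a fusion protein), against 1. Counting these with Oscar, 3 of the 28 (10.7%) and 3 of the cells without Acp5 (2.07%) had a read. Dcstamp, Siglec15, Calcr and Mmp9 were at 0 in every Mkx-/- cell. None of the 28 had Spi1 (PU.1, a myeloid transcription factor), which was read in 1 cell without Acp5. Nfatc1, the main transcription factor of osteoclast formation, was read in 25 of them (89.3%), but also in 82.1% of the Mkx-/- cells without Acp5. Itgb3 (integrin beta 3) was read in 6 of the 28 (21.4%) and in 54 of the cells without Acp5 (37.2%).

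Spp1 (osteopontin, a phosphoprotein of mineralized matrix) was also higher in Mkx-/- cells, with 447 and 1362 reads and a log2 ratio of 1.55 (1.40 to 1.71). It was read in 39 of 79 Acp5-carrying Mkx-/- cells (49.4%, 37.9 to 60.9) and in 42 of the others (28.97%, 21.7 to 37.1). Within Mkx-/- tenocyte-like cells the 2 shares were closer, at 31 of 44 (70.5%, 54.8 to 83.2) and 23 of 36 (63.9%, 46.2 to 79.2), and their intervals overlapped. The former shares mix clusters, and the latter hold the cluster fixed.

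Ctsk, the collagen-digesting protease, was detected in nearly every cell of both genotypes and was 1.39-fold higher in Mkx-/-. It had 14139 reads in WT (1037 CPM) and 20451 in Mkx-/- (1446 CPM), which gives a log2 ratio of 0.48 (0.45 to 0.51). With equal weight per cell the ratio was 0.42 and after thinning 0.38, both below that interval. Of the 10963 genes with at least 100 reads, whose median log2 ratio was 0.05 with an SD of 0.81, Ctsk stood above 79.8%. At least 1 Ctsk read was present in 95.2% of WT and 98.7% of Mkx-/- cells, a difference of 3.51 points (0.21 to 7.23) that included 0 after thinning (-1.13 to 6.41). The lowest, median and highest values per cell were 0, 833 and 6533 CPM in WT and 0, 1132 and 9945 CPM in Mkx-/-, so the genotypes overlapped over most of their range. The quartiles were 405 and 1575 CPM in WT and 575 and 1955 CPM in Mkx-/-.

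**Figure D3:**
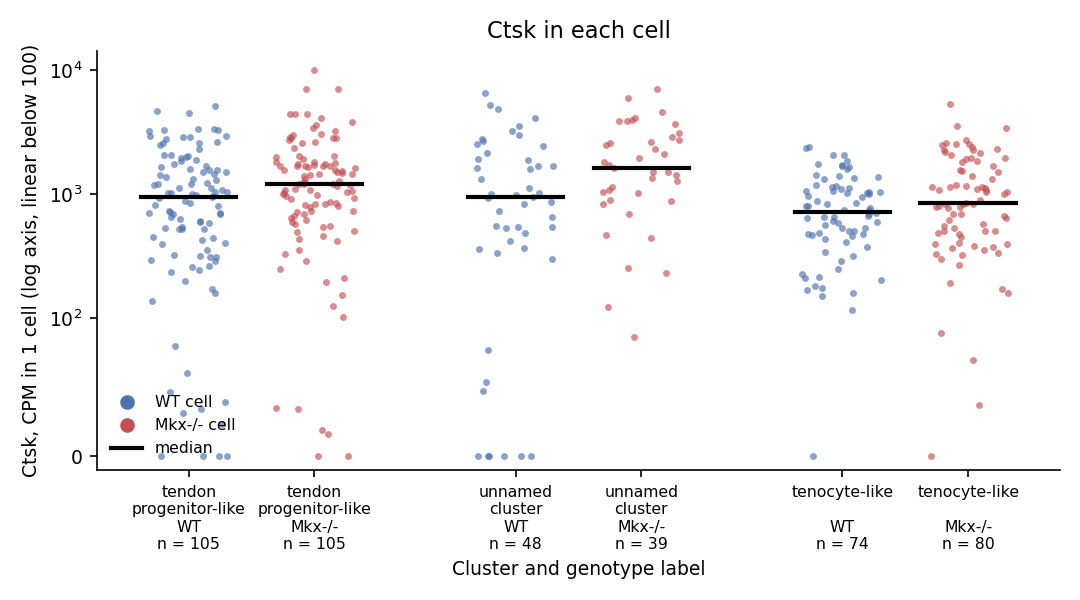
Ctsk in each cell (CPM, log axis with a linear part below 100) by cluster and genotype label, 1 point per cell, black bars at the median. The clouds overlap in every cluster, and the Mkx-/- median lies above the WT median in each.

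Ctsk was higher in Mkx-/- cells of each cluster. The log2 ratio was 0.33 (0.29 to 0.38) in progenitor-like cells, 0.73 (0.67 to 0.80) in the unnamed cluster and 0.55 (0.50 to 0.60) in tenocyte-like cells. Every cell with an Acp5 read also had Ctsk, 13 of 13 in WT and 79 of 79 in Mkx-/-, as did 94.9% and 97.9% of the cells without Acp5. Within Mkx-/- tenocyte-like cells the median Ctsk value was 946 CPM in the 44 with Acp5 and 783 CPM in the 36 without. Across all 224 Mkx-/- cells the Spearman rho of Ctsk with Acp5 was 0.01. In these cells the Ctsk level showed little relation to that of Acp5.

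Atp6v0d2, the d2 subunit of the proton pump, was the other member of at least 100 reads that differed by more than 2-fold. It had 33 reads in 9 WT cells (2.42 CPM) and 323 reads in 25 Mkx-/- cells (22.8 CPM), for a log2 ratio of 3.24 (2.72 to 3.801). The share of cells was 3.97% (1.83 to 7.39) and 11.2% (7.35 to 16.03), a difference of 7.196 percentage points (2.33 to 12.3). One Mkx-/- tenocyte-like cell with 2291 Tnmd reads and 2 Csf1r reads held 94 of the 323 reads. Cells with a Ptprc or Csf1r read held 38.1% of the Mkx-/- reads and 6.06% of the WT reads, and without them the log2 ratio was 2.601. Atp6v0d2 was higher in all 3 clusters, by a log2 ratio of 1.96 in progenitor-like, 5.55 in unnamed (2 WT reads) and 3.94 in tenocyte-like cells. Without the leading cells these were 3.09, 4.57 (a bound, with 0 WT reads left) and 3.73. The difference in share of cells included 0 in progenitor-like (-2.89 to 10.9 points) and tenocyte-like cells (-4.49 to 13.7). Acp5 was read in 13 of the 25 Mkx-/- cells with Atp6v0d2 (31.3% to 72.2%) and in 66 of those without (33.2%, 26.7 to 40.2), intervals that overlap.

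Tcirg1, the a3 subunit of the same pump, did not share that direction. It was read in 20 WT cells (10.5 CPM over the genotype) and 14 Mkx-/- cells (7.42 CPM), for a log2 ratio of -0.50 (-0.88 to -0.13). Cells with a Ptprc or Csf1r read held 29.4% of the WT reads and 16.2% of the Mkx-/- reads, and without them the ratio was -0.29. With equal weight per cell the ratio was -0.22, and after thinning -0.76. The shares of cells were 8.81% and 6.25%, with a difference of -2.56 percentage points whose interval ran from -7.62 to 2.43. Reads were fewer in tenocyte-like Mkx-/- cells (70 and 42), where the log2 ratio was -0.86 (-1.45 to -0.29). One Mkx-/- cell held 26 of the 42 reads, and without the leading cells the ratio was -1.85. In progenitor-like cells it was -0.18 (-0.76 to 0.40), an interval that includes no difference.

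The remaining members were close to absent. Car2, the proton-supplying enzyme, had 29 reads in WT, 15 and 14 of them in a pair of tenocyte-like cells without Ptprc or Csf1r, and 2 reads in 2 Mkx-/- cells. Calcr had 8 reads in 2 WT cells and 0 in Mkx-/-. Mmp9 was at 0 in all 451 cells, for which the exact interval of the share with a read reaches 1.61% in WT and 1.63% in Mkx-/- (3 cells of the total would be 1.32% and 1.34%). Of the 7 members, 4 had at least 100 reads. Acp5 and Atp6v0d2 were at least 2-fold higher in Mkx-/- and none of the 4 was 2-fold lower, while over all genes with at least 100 reads 7.23% were 2-fold higher and 6.12% were 2-fold lower. Since Acp5 was chosen for this contrast, nothing is read from that count.

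**Figure D4:**
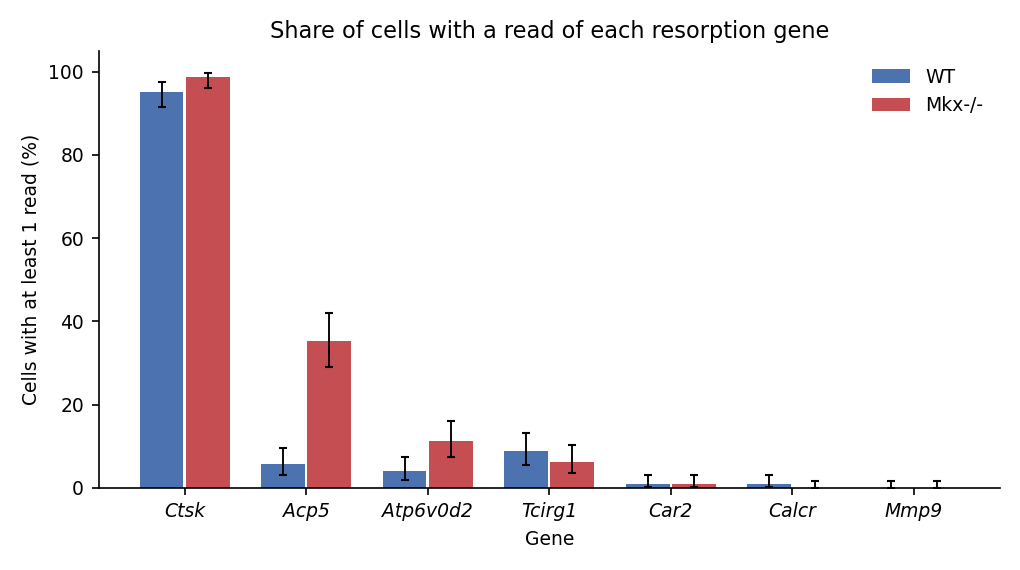
Share of cells with at least 1 read of each of the 7 genes in WT (227 cells) and Mkx-/- (224 cells); bars give percent, error bars the exact 95% interval for counting error. Acp5 (5.73% and 35.3%), Atp6v0d2 (3.97% and 11.2%) and Ctsk (95.2% and 98.7%) were found in more Mkx-/- than WT cells. The intervals of these differences lay above 0, but they cover counting error only and give no test between genotypes. After thinning, the interval of Ctsk included 0 (-1.13 to 6.41 points), while those of Acp5 and Atp6v0d2 did not. Acp5 was chosen by its rise in Mkx-/- cells.

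Genes around the members were read from 8 lists, chosen by function with earlier results of these data known. Of the listed genes, 55 had at least 100 reads. Of these 4 were at least 2-fold higher in Mkx-/- cells (7.27%) and 5 at least 2-fold lower (9.09%), beside 7.23% and 6.12% over all genes.

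In the osteoclast differentiation list, 9 of 15 genes had at least 100 reads, with a median log2 ratio of 0.44. Nfatc1, with the most reads (4401 and 5807), was at 0.35 (0.29 to 0.40). Snx10, a sorting nexin needed for resorption, was the gene past 2-fold, at -1.18 with 10.9 and 4.81 CPM. Of the 9 genes, 6 lay above 0 and 3 below, and Ostm1 (0.97) and Mitf (0.93) came closest to 2-fold higher. Dcstamp and Siglec15 were at 0 in every cell. Among stromal signals to osteoclasts, Tnfsf11 (RANKL) was at 0, Csf1 was at 0.25 (6440 and 7927 reads) and Tnfrsf11b, the RANKL decoy receptor osteoprotegerin, at 0.41 (365 and 502 reads).

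None of the 16 V-ATPase subunits with at least 100 reads differed by 2-fold, and their median log2 ratio was 0.04 (-0.43 to 0.49 over the genes). Atp6v0d1, the widely expressed form of the d subunit, had the highest ratio, 0.49 (0.41 to 0.57), with 2225 and 3235 reads, and Atp6v0e had the most reads and a ratio of -0.14. Of 10 cathepsins, Ctsb, with the most reads, was at 0.10 and Ctsc was past 2-fold at -2.26, with 97 and 21 reads, of which a single WT cell held 73.2%. Among acid phosphatases, Acp1 was at -0.01 and the lysosomal Acp2 at -0.93 (549 and 300 reads). Neither of these phosphatases was higher in Mkx-/- cells.

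The 4 carbonic anhydrases with at least 100 reads were all lower in Mkx-/- cells. Below that minimum the directions were mixed. Car3 had 1 read in WT and 46 in Mkx-/- (54.3% of them in 1 cell), and Car11 had 30 and 6. Car9, a hypoxia-induced surface enzyme, had 774 and 236 reads and a log2 ratio of -1.77 (-1.98 to -1.55), and Car8 was at 11.1 and 2.76 CPM, a ratio of -2.01. In the matrix protease list, Mmp13 (a collagenase of cartilage and bone) was at 1.42 with 10.6 and 28.5 CPM, of which the leading cells held 62.1% and 51.4%. Mmp12 (macrophage elastase) was at -2.26 with 341 and 74 reads, 86.2% and 95.9% of them in 1 cell of each genotype. Timp2, the protease inhibitor with the most reads, was at -0.08. Of 5 bone matrix and mineralization genes, Spp1, Bglap2 (an osteocalcin gene, 1.14 with 10.1 and 22.1 CPM) and Ank (a pyrophosphate transporter, 1.03 with 273 and 579 reads) were past 2-fold. The other osteocalcin gene of the list, Bglap, was at -0.13 (-0.45 to 0.19), and the bone sialoprotein gene Ibsp and the osteoblast factor Sp7 were at 0.

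**Figure D5:**
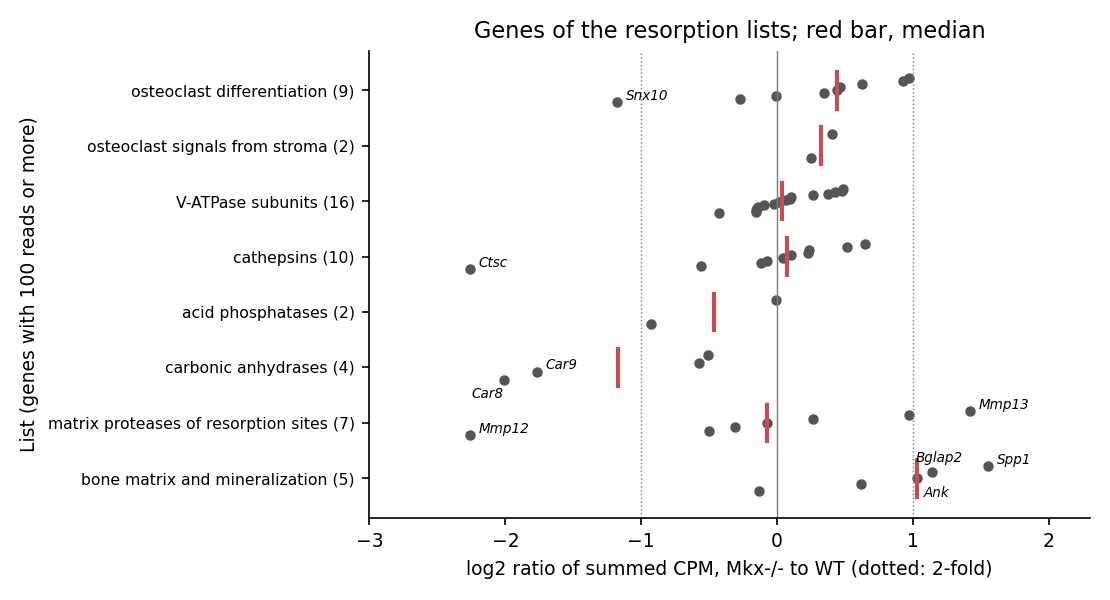
The log2 ratio of summed CPM, Mkx-/- to WT, for each gene with at least 100 reads in the 8 lists (points), with the median of each list in red and dotted lines at 2-fold. V-ATPase subunits lie between -0.43 and 0.49, and Spp1, Bglap2, Ank and Mmp13 are the genes above the upper line.

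Over the 224 Mkx-/- cells, the genes whose level most resembled that of Acp5 were ranked by Spearman rho of log2(CPM + 1) among 5343 genes read in at least 20% of the cells. They were Crispld2 (0.40), Olfml3 (0.40), Snhg18 (0.39), Gng11 (0.34) and Angptl7 (0.34), against a median of 0.01 over all these genes. Tnmd was at 0.29 and Col1a1 at 0.32. All points share depth and cluster: at 28000 reads per cell the leading 5 fell to between 0.29 and 0.31, and within the 80 tenocyte-like cells to between 0.10 and 0.24. Tnmd there was at -0.12.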

How the data were processed

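Raw read counts per gene for 451 cells, as deposited by the authors, were the only values used, and 0 columns were left unused. Per their methods, reads were filtered with AfterQC, trimmed at a base quality of 20, aligned with bowtie2 and counted with featureCounts. The methods name mm9 and the submitters' processing notes mm10, and the table holds no coordinates. bowtie2 does not split reads over introns, and the counting strand and the handling of reads with several positions are not given in the sources used here. Wells with 0 or several cells had been left out by the submitters, and no doublet caller was run.

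Members and lists were chosen with earlier results of these data known. Counts were summed per genotype (1 sample each) and scaled to CPM of all reads. Ratios have exact conditional binomial intervals, sums exact Poisson intervals, shares Clopper-Pearson intervals and their differences Newcombe intervals (scipy 1.17.1). The ratio interval was checked on simulated Poisson sums. These hold counting error only, so the check does not cover the uneven spread of reads over cells. A sum of 0 was set to 3 reads, and a gene with 3 reads or fewer in each genotype was given no ratio. No p-value was computed, since 1 sample per genotype allows none. Genes were named if they were members, or if they belonged to a list, had at least 100 reads and were past 2-fold (up to 4 per list) or had the most reads of the list. The 5 genes with the highest rho with Acp5 were also named. Other genes of the lists were named after their values were seen.

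Clusters came from Seurat 5.3.0 (R 4.3.3), with canonical correlation anchors on the pooled top 1000 variable genes per genotype, 4 dimensions and resolution 0.4. The members and listed genes were left out, which reduced 1693 genes to 1678. Progenitor-like (Cd44, Thy1, Ly6a, Fstl1, Tppp3) and tenocyte-like (Col11a2, Col1a1, Col1a2, Sparc, Tnmd, Fmod) cells were named from these markers. The unnamed cluster had 2 markers to rest on, and the names are rebuilt and may differ from those of the study. Alternatives were TMM (edgeR 4.0.16) and median-of-ratios scaling (DESeq2 1.42.0), equal weight per cell, other read minimums, thinning, cells left out and 2 other clusterings.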

Additional observations from a re-analysis of the deposited data

How the results depend on the processing

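No paired analysis was possible because each genotype is 1 sample and the numbers of the cells only name them. The Acp5 log2 ratio of 4.43 ranged from 4.14 to 5.81 over 9 alternatives, with 5.78 without Ptprc or Csf1r cells and 5.81 without cells of 3 or more blood markers, the latter added after the values were seen. The difference in the share of Acp5 cells was 16.6 points at 3 reads, 11.6 at 10 reads and 21.3 after thinning. Tnmd in Mkx-/- Acp5 cells fell to 90.9% at 3 reads and 82.1% at 10. Csf1r in WT Acp5 cells was 57.1% at 3 reads, 40% after thinning and 0% at 10 reads. In Mkx-/- ones it was 0% at 3 and at 10 reads. These minimums, like those for Tnmd and Spp1, applied to both genes. Of the 2 WT cells with 10 or more Acp5 reads, the leading cell had 5 Csf1r reads. Spp1 in Mkx-/- Acp5 cells was 36.4% at 3 reads and 32.1% at 10. Without leading cells Acp5 in tenocyte-like cells was at 8.003. With a minimum of 20 reads, 1 member (Car2) was past 2-fold lower and 7 listed genes were higher and 10 lower. With a minimum of 1 read these became 2 members (Car2 and Calcr), 9 and 15, since more genes with few reads entered. Over all genes 12.97% were higher and 14.4% lower at 20 reads, and 15.1% and 21.2% at 1 read. Tcirg1 in progenitor-like cells turned from -0.18 to 0.15 with members kept for clustering and to 0.016 with 10 dimensions. The cause was not tested. The cells kept their cluster name in 440 and 426 of 451 cases. Scaling by TMM or median of ratios moved each member's ratio by at most about 0.02. Atp6v0d2, Tcirg1, Car2 and Calcr rest on few cells. The intervals of their differences in share cover counting error only, and no smallest detectable difference was computed.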
